A study of Mus musculus with 70 samples.

Results

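The 9 genes described here are Serpina3c, Serpina11, H2-T24, Gm11127, Gm8909, Sult2a6, Trim6, Trim34b and Rpl29, of 23732 gene symbols that the 3 deposited count tables have in common. They were chosen by symbol because their liver counts differed between knock-in and wild-type mice largely without regard to diet, so the liver differences between genotypes below are descriptions and carry no test. Tests are given in liver macrophages, whose values did not choose the genes, and on the genes that lie beside the 9 on their chromosomes. The question put to these data is whether the 9 genes mark chromosome segments that differ between the 2 mouse lines or respond to osteopontin, and whether macrophages show the same differences as liver.

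Sequencing of poly(A) RNA covered total liver (32 libraries) and resident liver macrophages, gated F4/80high CD11blow (38 libraries), after 24 weeks on a control diet or on a diet that causes NASH, nonalcoholic steatohepatitis. The animals called WT here have the genotype label Lyz2.Cre+/+, which names a Cre recombinase driven by the promoter of the lysozyme gene Lyz2. That promoter is active in myeloid cells. Titles of the NASH livers called WT here do not say WT, and these libraries were placed by that genotype label. The animals labelled OpnKI Mye, called KI here, are by that name a knock-in of osteopontin, the secreted glycoprotein encoded by Spp1, in myeloid cells. Their Cre allele, the ages of the mice and the strain background of either line are not given in the labels used here. Each tissue had male and female WT and KI groups on each diet, 16 groups in all. Liver groups had 4 libraries, macrophage control-diet groups had 4, and macrophage NASH groups had 5 in males and 6 in females. The labels do not say that libraries of a group came from separate mice, so p-values measure only the spread between these samples.

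Total counts per library ran from 11245097 to 29966174. Male liver WT control replicates 3 and 4 differed by less than counting noise over genes with a summed count of 20 to 200 (mean chi-square per gene 0.06711, against at least 2.053 in each of the other 121 same-group pairs), and their mean was used as 1 sample, so that this group has n = 3. Abundant genes did differ between them, with Alb at 26165 CPM in replicate 3 and 134096 CPM in replicate 4. Sex genes contradicted the label in that sample and in macrophage male WT control replicate 4; both stayed in their labelled groups. In macrophages on the control diet the CPM of Spp1 (counts scaled to the library's total count) were 0.268 to 0.516 for males labelled WT and 7.12 to 11.3 for males labelled KI. For females the ranges were 0 to 0.199 (WT) and 1.43 to 2.47 (KI). With NASH feeding the macrophage ranges overlapped in both sexes, 5.72 to 55.9 (WT) and 43.7 to 199 (KI) for males and 1.15 to 11.1 (WT) and 2.17 to 102 (KI) for females. Liver Spp1 did not separate the genotypes on the control diet (14.1 to 40.8 CPM over all control libraries of both sexes). After NASH feeding liver Spp1 was lower in the KI libraries, without overlap in males (22.2 to 65.8 CPM, WT 133 to 698) and with overlap in females (26.6 to 58 CPM, WT 53.4 to 92.8), so NASH livers do not carry the label's direction for this gene. Summed over 12 hepatocyte markers, liver libraries held 52194 to 180034 CPM and macrophage libraries 26 to 2944 CPM, and 10 resident Kupffer cell markers summed to 19331 to 48204 CPM in macrophage libraries. In bulk samples such as these, fewer cells of a type and less RNA per cell cannot be told apart.

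The 9 genes belong to 5 families that arose largely by tandem duplication or by retroposition. Serpina genes encode secreted serine protease inhibitors made mainly by hepatocytes, and the mouse cluster holds extra copies of the human genes for alpha-1-antitrypsin and antichymotrypsin. H2-T24, Gm11127 and Gm8909 encode MHC class I-like proteins of the H2 complex, among the most variable regions between inbred mouse strains. Sult2a enzymes sulfate bile acids and steroids and in mice are more abundant in female liver. Trim6 and Trim34b encode tripartite-motif ubiquitin ligases of a cluster linked to antiviral defence, and Rpl29 encodes a protein of the large ribosomal subunit that has left many pseudogene copies in the genome.

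The 9 genes fell into 5 loci on 4 chromosomes of GRCm38.p6, the RefSeq assembly of the build mm10 that the submitters' processing notes name. Serpina11 (chr12:103980243-103989968) and Serpina3c (chr12:104146907-104153929), both on the minus strand, lay within 174 kb. H2-T24 (chr17:36003471-36020800), Gm11127 (chr17:36055816-36058371) and Gm8909 (chr17:36143812-36168602), all on the minus strand, lay within 165 kb. Trim6 (chr7:104218795-104235152) and Trim34b (chr7:104329471-104336617), both on the plus strand, lay within 118 kb, while Sult2a6 lay far away on the minus strand of the same chromosome (chr7:14222403-14254870). Rpl29 lay alone on the plus strand of chromosome 9 (chr9:106428889-106431568). None of the 9 was on chromosome 5, where Spp1 lies (chr5:104435111-104441053).

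RefSeq promoter windows, 250 bases before to 50 after the start, were matched for 7 of the 9 genes. Those of Gm11127 and Gm8909 and of Trim6 and Trim34b are shown because the 2 genes of each pair had correlated log2 CPM across liver libraries (Pearson's r of 0.95 in males and 0.99 in females for Gm11127 and Gm8909, 0.91 and 0.93 for Trim34b and Trim6; points share genotype groups). The windows lie at chr17:36058322-36058621 (minus strand), chr17:36168488-36168787 (minus), chr7:104218545-104218844 (plus) and chr7:104329221-104329520 (plus). Capitals mark GAAANNGAA, the core of the interferon-stimulated response element, searched on both strands (in Trim34b the match is on the other strand).
Gm11127: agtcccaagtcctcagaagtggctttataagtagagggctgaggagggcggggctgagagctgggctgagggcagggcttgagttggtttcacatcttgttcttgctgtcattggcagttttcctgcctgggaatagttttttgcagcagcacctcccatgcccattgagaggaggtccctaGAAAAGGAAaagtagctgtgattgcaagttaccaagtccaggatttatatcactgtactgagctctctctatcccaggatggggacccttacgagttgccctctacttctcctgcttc
Gm8909: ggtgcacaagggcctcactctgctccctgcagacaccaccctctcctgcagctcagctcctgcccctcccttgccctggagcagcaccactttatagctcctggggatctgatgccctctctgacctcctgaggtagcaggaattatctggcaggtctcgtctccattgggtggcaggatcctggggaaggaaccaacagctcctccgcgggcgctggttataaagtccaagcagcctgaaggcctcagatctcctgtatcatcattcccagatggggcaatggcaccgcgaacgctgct
Trim6: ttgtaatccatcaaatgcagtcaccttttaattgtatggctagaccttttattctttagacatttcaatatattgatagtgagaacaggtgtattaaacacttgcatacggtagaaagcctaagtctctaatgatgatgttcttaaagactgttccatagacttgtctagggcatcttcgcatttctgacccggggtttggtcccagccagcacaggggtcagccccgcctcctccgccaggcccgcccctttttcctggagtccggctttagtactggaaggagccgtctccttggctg
Trim34b: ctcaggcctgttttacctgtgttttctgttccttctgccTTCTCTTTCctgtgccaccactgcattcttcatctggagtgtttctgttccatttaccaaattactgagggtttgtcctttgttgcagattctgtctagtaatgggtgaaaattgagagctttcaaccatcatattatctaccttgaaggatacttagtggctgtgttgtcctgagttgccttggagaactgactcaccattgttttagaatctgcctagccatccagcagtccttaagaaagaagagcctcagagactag
The motif had 1 match in Gm11127, 1 in Trim34b and none in the other 5 windows. Of all 27025 genes with a window, 9.76% held it (8.56% of 32851 windows), so 2 of 7 is a description of these letters and not of binding.

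Reads of several of the 9 genes could be shared with copies elsewhere, and the authors' counting of such reads and of strand is not given in the sources used here. Of the 50-base stretches of its transcripts, Gm11127 shared 63.8% with other genes (most with Gm7030), Trim34b 59% with Trim34a, Rpl29 47.9% with 80 genes (most with the pseudogene Gm6344) and Serpina11 43.9% with the overlapping transcript Gm28577. Gm8909 shared 14.3%, Sult2a6 7.35%, Serpina3c 4.25%, H2-T24 3.23% and Trim6 none. Levels of the first 4 are therefore uncertain in what they count. Antisense transcripts overlap H2-T24 and Gm8909, and Gm6034 overlaps Gm11127 on the opposite strand.

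In female liver on the control diet, all 9 genes separated the genotypes without overlap, 7 higher and 2 lower in KI. Among all 13315 genes tested, 18.9% did not overlap in that comparison; the genes were chosen on this difference, so nothing is read from their count. Serpina3c was at 0.0467, 0, 0.0956 and 0.047 CPM in the WT control libraries and at 89.2, 138, 151 and 36.8 CPM in the KI control libraries. WT livers held almost no Serpina3c reads and every KI control liver held many. Serpina11 was at 77.9, 69.2, 70.7 and 56.4 CPM in WT and at 221, 302, 357 and 121 CPM in KI. It was expressed in both genotypes and higher in each KI library, by 1.98 ± 0.29 (log2, SE).

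With NASH feeding the Serpina pair kept this order in 3 of the 4 female KI libraries. Serpina3c was at 0.0467, 0, 0.591 and 0.0438 CPM in WT and at 28.5, 66.7, 32.6 and 0.167 CPM in KI. KI NASH replicate 4 lay within the WT range. The same library had the lowest Serpina11 of its group, 93.5 CPM against 204 to 226 CPM in the other KI NASH libraries, still above the WT NASH libraries (45.8 to 60.2 CPM).

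The class I-like genes of chromosome 17 were close to absent in female WT liver. Gm11127 was at 0, 0, 0 and 0.0939 CPM in WT control, at 17.8, 12, 8.82 and 11.4 CPM in KI control, and at 0, 0, 0 and 0.132 CPM in WT NASH libraries. In KI NASH libraries it was at 0, 10.6, 9.06 and 9.43 CPM, so KI NASH replicate 1 looked like WT. Gm8909 followed the same libraries, with 0.0877 CPM at most in WT, 9.39 to 18.8 CPM in KI control, and 0.0546, 13.1, 15.6 and 12.7 CPM in KI NASH. H2-T24 differed less, with 5.04, 5.72, 6.55 and 6.06 CPM in WT control and 10.9, 12.1, 9.54 and 7.2 CPM in KI control, a difference of 0.90 ± 0.22 (log2, SE). With NASH feeding H2-T24 was at 6.86, 6.68, 3.34 and 3.2 CPM in WT and at 9.66, 13.7, 13.4 and 11.5 CPM in KI. H2-T24 thus stood above the WT libraries in KI NASH replicate 1 too, where Gm11127 and Gm8909 were missing.

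Trim6 and Trim34b were both higher in every female KI than in every female WT liver, on both diets. Trim34b was at 0.14, 0, 0 and 0.047 CPM in WT control and at 1.75, 3.43, 1.77 and 0.851 CPM in KI control. On the NASH diet it was at 0.0467, 0, 0.0422 and 0 CPM in WT and at 2.78, 1.47, 1.9 and 2.62 CPM in KI. Trim6 was at 0.187 to 0.84 CPM in the 8 WT and at 2 to 14.7 CPM in the 8 KI libraries, with differences of 3.75 ± 0.53 on the control and 3.78 ± 0.51 on the NASH diet (log2, SE).

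The genes lower in female KI liver were Sult2a6 and Rpl29. Sult2a6 was at 13.5, 2.47, 1.91 and 6.34 CPM in WT control and at 19.8, 15.8, 9.51 and 12.1 CPM in WT NASH libraries. It had 0 counts in 7 of the 8 KI libraries and 0.0546 CPM in the other, KI NASH replicate 1. Rpl29 was at 31.3, 33.3, 18.6 and 29 CPM in WT control and at 1.51, 2.51, 1.29 and 2.1 CPM in KI control. On the NASH diet Rpl29 was at 31.3, 26.3, 18.8 and 18.9 CPM in WT and at 13.7, 15.4, 1.6 and 30.4 CPM in KI, so that the groups overlapped. Rpl29 was the female liver gene whose genotype difference moved most clearly with diet, from -3.78 ± 0.58 to -0.67 ± 0.50 (log2, SE), a change of 3.12 ± 0.75. For the other 8 genes the 95% interval of that change included 0. It was too wide to show independence from diet for Serpina3c (-9.07 to 1.61), Gm11127 (-7.48 to 4.53) and Gm8909 (-6.98 to 4.80).

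After NASH feeding 5 of the 9 genes did not overlap in female liver (H2-T24, Serpina11, Trim6 and Trim34b higher and Sult2a6 lower in KI), beside 6.09% of all genes tested. Serpina3c, Gm11127, Gm8909 and Rpl29 overlapped, the first through KI NASH replicate 4, the next pair through KI NASH replicate 1 and Rpl29 through KI NASH replicate 4.

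**Figure D1:**
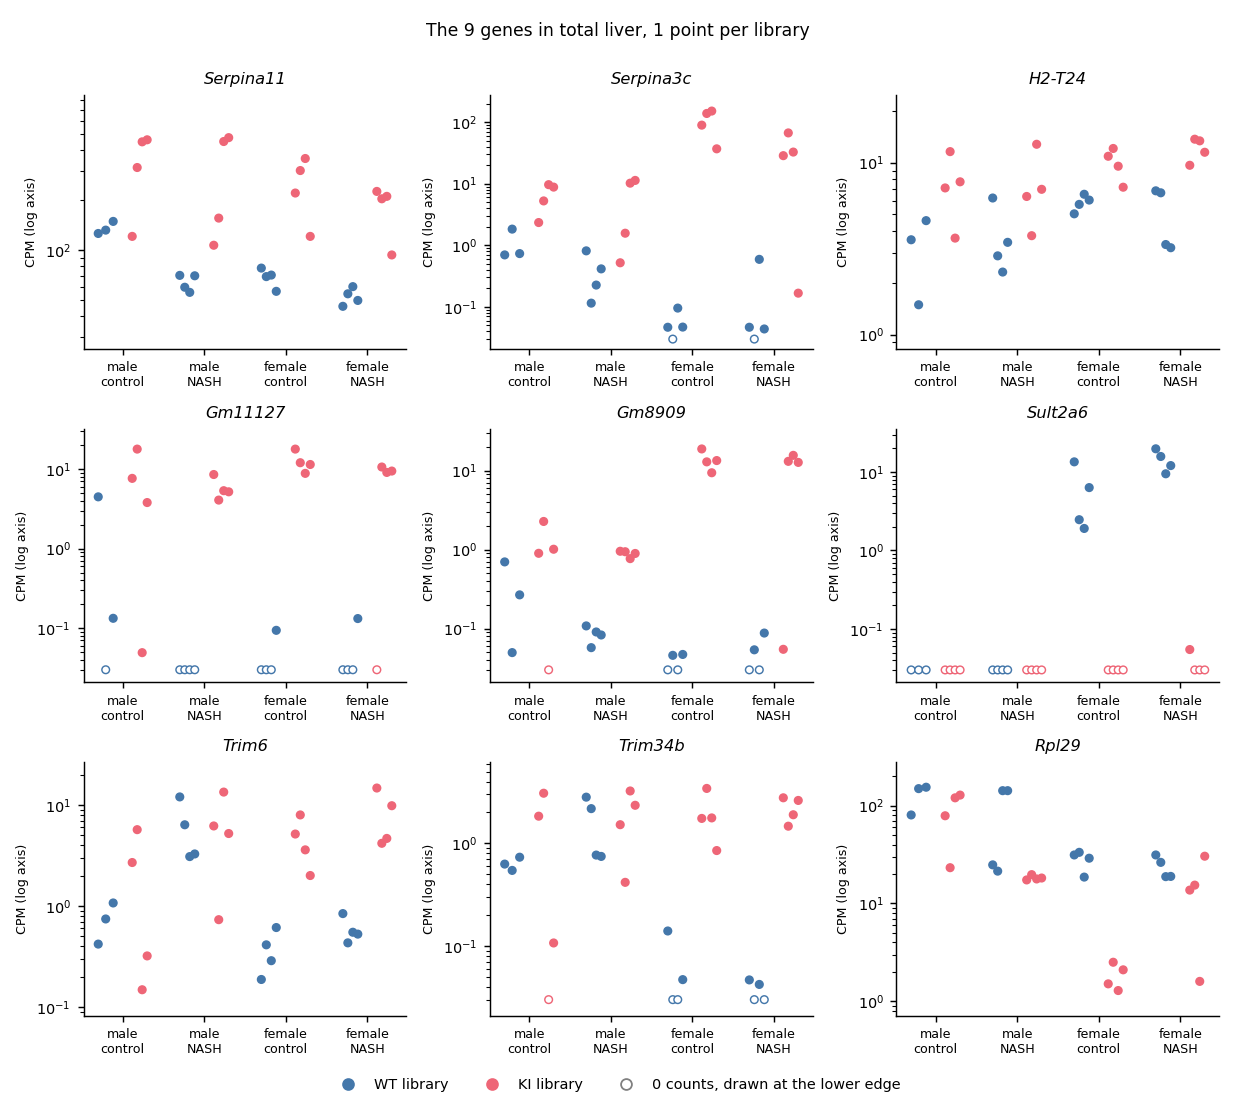
CPM of the 9 genes in each liver library (points, log axis) by sex, genotype and diet; male WT control replicates 3 and 4 are 1 merged point. Female WT and KI control points are apart for all 9 genes, while male groups overlap for 8 of 9 on the control diet.

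In male liver the genotypes overlapped far more. On the control diet 1 of the 9 genes, Serpina3c, did not overlap, beside 17.9% of the 12988 genes tested, and on the NASH diet 4 did not overlap (Serpina11, Gm11127 and Gm8909 higher and Rpl29 lower in KI), beside 35.9%. Sult2a6 had 0 counts in all 16 deposited male libraries, which allows at most 0.1 to 0.267 CPM per library (3 counts, counting error only). Lyz2, whose promoter drives the Cre, also varied in liver: its CPM ranged from 1.05 to 2.58 (female WT), 1.25 to 68.9 (female KI), 33.4 to 310 (male WT) and 0.48 to 54.8 (male KI). In control-diet macrophages its CPM ranged from 123 to 2548 (male WT) and 139 to 2519 (male KI). For females the ranges were 95.4 to 2645 (WT) and 71.3 to 2973 (KI). On the NASH diet its macrophage CPM were 1748 to 3681 (male WT) and 1532 to 3782 (male KI). For females they were 2067 to 2678 (WT) and 43.3 to 2690 (KI). Whether every WT library carries the labelled Cre genotype was not tested. The part of Lyz2 in the differences of the 9 genes was not tested either.

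Serpina3c in male liver was at 0.698, 1.83 and 0.733 CPM in WT control and at 2.34, 5.25, 9.64 and 8.8 CPM in KI control. On the NASH diet it was at 0.812, 0.115, 0.226 and 0.414 CPM in WT and at 0.52, 1.57, 10.2 and 11.3 CPM in KI. KI NASH replicate 1 lay within the WT range and replicate 2 little above it. Serpina11 was high in the same 5 libraries, at 315 to 477 CPM in KI control replicates 2, 3 and 4 and KI NASH replicates 3 and 4, and at 55.6 to 156 CPM elsewhere.

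Gm11127 in male liver was at 4.47, 0 and 0.133 CPM in WT control and at 7.63, 17.8, 0.0492 and 3.79 CPM in KI control. WT control replicate 1 therefore carried it and KI control replicate 3 did not. On the NASH diet it was at 0 CPM in all 4 WT and at 8.53, 4.07, 5.34 and 5.17 CPM in the KI libraries. Without WT control replicate 1 the control-diet difference rose from 2.16 ± 1.32 (log2, SE) to 6.80. Gm8909 split the 15 male samples in the same way, 0 to 0.267 CPM in 7 and 0.698 to 2.27 CPM in 8, and H2-T24 was at 1.49 to 6.23 CPM in WT and 3.64 to 12.8 CPM in KI.

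Trim6 and Trim34b in male liver split by library rather than by label. Trim6 was at 0.419, 0.743 and 1.07 CPM in WT control, at 12, 6.36, 3.08 and 3.27 CPM in WT NASH, at 2.69, 5.69, 0.148 and 0.32 CPM in KI control and at 6.19, 0.731, 13.4 and 5.21 CPM in KI NASH libraries. The highest and lowest libraries of each genotype thus spanned nearly the same range. Trim34b was lowest in KI control replicates 3 and 4 (0 and 0.107 CPM) and otherwise at 0.417 to 3.24 CPM. Rpl29 fell into a low band of 17.4 to 24.8 CPM and a high band of 78.7 to 154 CPM. The low band held WT NASH replicates 1 and 2, KI control replicate 2 and all 4 KI NASH libraries, and the other 8 samples were in the high band.

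**Figure D2:**
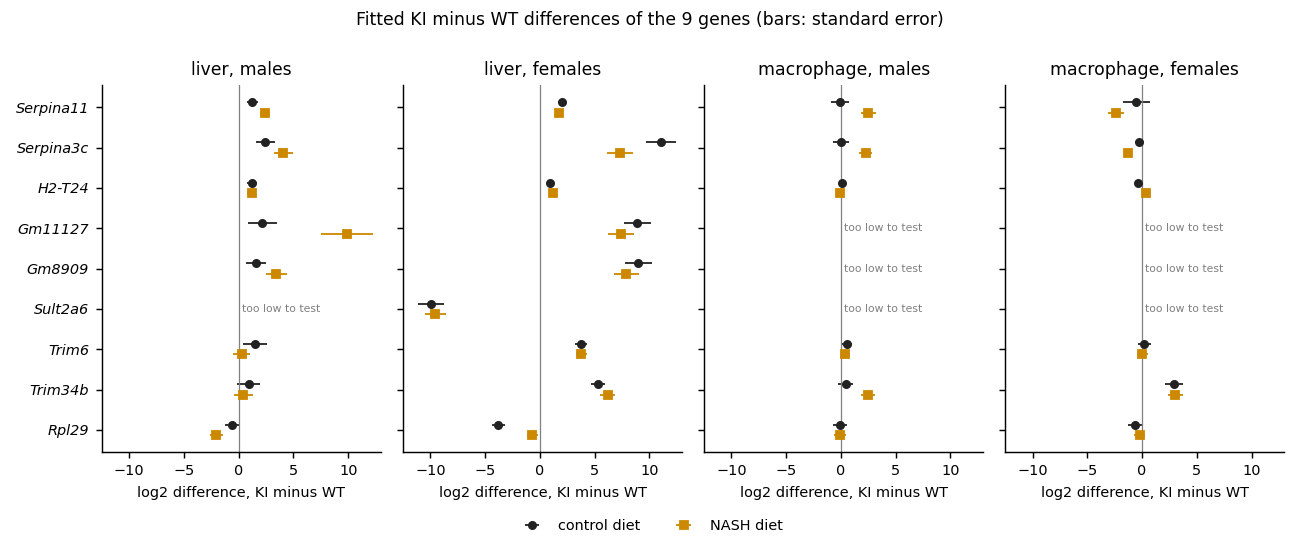
KI minus WT difference of the 9 genes (log2, points with bars of 1 SE) in each fit and diet. Liver values chose the genes and are descriptions; in macrophages Trim34b has the highest of the female values, 2.90 on the control and 3.02 on the NASH diet.

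Gm11127 and Gm8909 split the liver libraries alike, and a library high at 1 locus could be low at another. H2-T24 did not follow that pair in female KI NASH replicate 1, and Trim6 was under 1 CPM in several male samples whose Trim34b was not in its low range. In female KI NASH replicate 1 the pair Gm11127 and Gm8909 was near 0 while Serpina3c was at 28.5 and Trim6 at 14.7 CPM. In female KI NASH replicate 4 Serpina3c was at 0.167 CPM while Gm11127 was at 9.43 and Trim6 at 9.82 CPM. In male KI control replicate 3 Gm11127, Gm8909, Trim6 and Trim34b were all at 0.148 CPM or less while Serpina3c was at 9.64 CPM. In male KI NASH replicate 1 it was the reverse, with Serpina3c at 0.52 CPM, Gm11127 at 8.53 CPM and Trim6 at 6.19 CPM.

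Other genes on the same chromosomes switched in the same libraries. H2-Ea-ps lies 1.71 Mb and C4a 1.24 Mb from Gm11127, and Serpina3h lies 0.101 Mb from Serpina3c. These companions were chosen after their values were seen and are descriptions. H2-Ea-ps, the remnant of an MHC class II gene whose expression is known to differ between H2 haplotypes, was at 0 CPM in the 9 female liver libraries with low Gm11127 and at 6.63 to 21.7 CPM in the 7 with high Gm11127. In males it was at 0 to 0.197 CPM in the 7 low samples and 4.17 to 29.8 CPM in the 8 high samples, WT control replicate 1 included at 6.07 CPM. C4a, the complement-like gene also called sex-limited protein, was at 2.24 to 8.03 against 31.2 to 67.9 CPM in females and at 10.9 to 186 against 503 to 1243 CPM in males. Serpina3h, an antichymotrypsin-like gene beside Serpina3c, was at 0.323 to 1.56 CPM in the 9 female libraries low in Serpina3c and 4.31 to 21.7 CPM in the 7 high ones, and in males at 0.172 to 0.748 against 3.9 to 9.77 CPM. KI NASH replicate 4, the female KI library low in Serpina3c, was low in Serpina3h too (0.335 CPM).

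The alpha-1-antitrypsin gene Serpina1e followed Serpina3c in female but not in male liver. In females it was at 2.38 to 52 CPM in the 9 low and 218 to 623 CPM in the 7 high libraries. In males it was at 2720 to 7749 CPM in replicates 1 and 2 of the WT control, KI control and KI NASH groups, and at 87.5 to 250 CPM in the other 9 samples. Male libraries of both genotypes thus held either level.

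Trim12a, a gene of the Trim5 family beside Trim34b, ran opposite to Trim34b in liver. In female WT livers it was at 6.09 to 15 CPM and in the 8 KI livers at 0 to 7.91 CPM, with 4 of them at 0. Over libraries Pearson's r between log2 CPM of Trim34b and Trim12a was -0.76 in 16 female and -0.82 in 15 male liver samples, where points share genotype groups. In the count of shared 50-base stretches Trim34b shared sequence with Trim34a and with no other gene, Trim12a included.

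**Figure D3:**
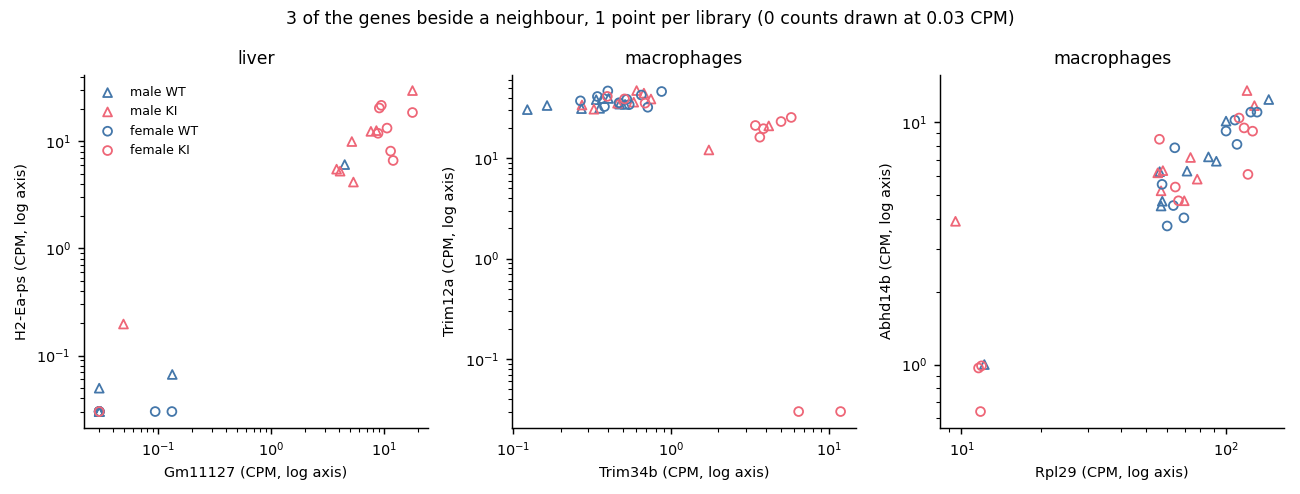
CPM of Gm11127 against H2-Ea-ps in liver, and of Trim34b against Trim12a and Rpl29 against Abhd14b in macrophages (log axes, 1 point per library, 0 counts drawn at the lower edge). H2-Ea-ps is at 0.197 CPM or less wherever Gm11127 is low, and Trim12a is at 0 to 25.5 CPM in the 9 libraries high in Trim34b.

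The genes whose level was most like that of each of the 9 were listed with their chromosome. For each gene the 25 most alike by absolute Pearson's r of log2 CPM over the 31 liver samples (each sex's mean subtracted, so that points share sex, diet and genotype groups) were taken. On the same chromosome lay 19 of 25 for Gm11127, 17 for Gm8909, 18 for Trim34b, 14 for Trim6, 11 for H2-T24, 11 for Rpl29, 10 for Serpina3c and 6 for Serpina11. Within 10 Mb lay 15 of 25 for Gm11127, 14 for Trim34b, 13 for Trim6, 12 for Gm8909, 9 for Rpl29, 8 for H2-T24, 5 for Serpina3c, 4 for Serpina11 and 1 for Sult2a6. Of all 12603 genes 5.10% were on chromosome 17, 7.52% on chromosome 7, 5.59% on chromosome 9 and 3.48% on chromosome 12. The closest were H2-Ea-ps, Gm8909 and C4a for Gm11127; Gm11127, H2-Ea-ps and Vps52 for Gm8909; Trim26, Dnah8 and Pou2f1 for H2-T24; Serpina3h, Serpina11 and Vcpkmt for Serpina3c; Serpina3h, Serpina3c and Tc2n for Serpina11. For Trim6 they were Trim34b, Clns1a and P2ry2, for Trim34b Trim6, Gm1966 and Acer3, and for Rpl29 Acpp, Mapkapk3 and Abhd14a. Sult2a6, over the 16 female libraries, was most like Trim34b, Serpina11 and Trim6 (r of -0.92, -0.88 and -0.88), with 7 of 25 on chromosome 7 (7.64% of genes there). Trim34b and Trim6 lie about 90 Mb from Sult2a6. The others of the 9 were not left out when likeness was ranked. All 9 were chosen on the same liver difference, so likeness among them is partly set by that choice and nothing is read from it.

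The neighbours of the 9 genes, the 20 tested genes on each side of a locus and those between its genes, were tested for KI against WT as the mean of both diets with edgeR's quasi-likelihood test and Benjamini-Hochberg adjustment over all genes. In female liver 14 of 211 neighbours (6.64%) were called, 7 higher and 7 lower, against 0.924% of all 13315 genes. In male liver 73 of 211 (34.6%) were called against 35.4% of all genes, a share at the background. By diet, 27 of 211 (12.8%) were called in female liver on the control diet, beside 7.57% of all genes. After NASH feeding 0 of 211 were called there by edgeR, with 49 at an unadjusted p under 0.05 and 9 by DESeq2, beside 0.0901% of all genes. In male liver the counts were 9 of 211 (4.27%) on the control diet, beside 4.67%, and 80 of 211 (37.9%) after NASH feeding, beside 37.0%. The female calls in the mean of diets were spread over the 5 loci, 3 beside Serpina11 and Serpina3c, 2 at the H2 genes, 2 beside Sult2a6, 4 at the Trim genes and 3 beside Rpl29. Without WT control replicate 1 or WT NASH replicate 2 the female count was 8, and without KI control replicate 3 or WT NASH replicate 4 it was 9. The 20 genes on each side of Spp1 gave 0 of 40 calls in female liver by this test and 12 of 40 (30.0%) in male liver.

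By the rule for naming, 3 neighbours were called in 1 direction in both liver sexes. Serpina3h, 94 kb from the Serpina locus, was higher in KI by 3.77 ± 0.54 (log2, SE) in females (adjusted p = 0.0029) and 3.97 ± 0.86 in males (adjusted p = 0.0031). Ifi27, an interferon-induced gene 540 kb away, was higher by 1.11 ± 0.17 in females (adjusted p = 0.006) and 0.71 ± 0.19 in males (adjusted p = 0.012). Mapkapk3, a kinase activated by stress-responsive MAP kinases, 823 kb from Rpl29, was lower in KI, with differences of -1.25 ± 0.15 in females (adjusted p = 0.00045) and -1.19 ± 0.22 in males (adjusted p = 0.0014). None of the 3 was called in macrophages in the mean of diets, with adjusted p from 0.29 to 0.99.

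The other 11 neighbours called in female liver, named after their values were seen, included Serpina1e (4.09 ± 0.67), the class I genes H2-Bl (2.87 ± 0.36) and H2-T10 (2.34 ± 0.46), Trim68 (1.09 ± 0.18) and Col6a6 (2.30 ± 0.51), all higher in KI (log2, SE). Lower in KI were Gm1966 (-2.93 ± 0.52), Sult2a5 (-2.91 ± 0.64), Acpp (-2.55 ± 0.56), Art2b (-2.14 ± 0.46), the complement receptor gene C5ar2 (-0.87 ± 0.17) and the folate receptor gene Folr2 (-0.65 ± 0.09). In males H2-Bl was at -0.83 ± 0.33 and Trim68 at -0.47 ± 0.23, and none of the 11 was called there; Sult2a5 and Art2b were too low to test. Of genes other than the 9, chromosomes 17, 12 and 7 had the highest shares called in female liver, 2.06%, 1.94% and 1.77%, beside 0.857% of all, while chromosome 9, where Rpl29 lies, was at 0.682%. Chromosomes 19 and 18, which hold none of the 9, came next at 1.63% and 1.52%. These shares rest on 14, 9 and 18 calls for chromosomes 17, 12 and 7, and 8 and 5 for chromosomes 19 and 18. They include the neighbours counted above and are not separate from that count. In male liver the shares were 35.9%, 33.3% and 34.3% for chromosomes 17, 12 and 7 and 37.7% for chromosome 9, beside 35.4%.

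**Figure D4:**
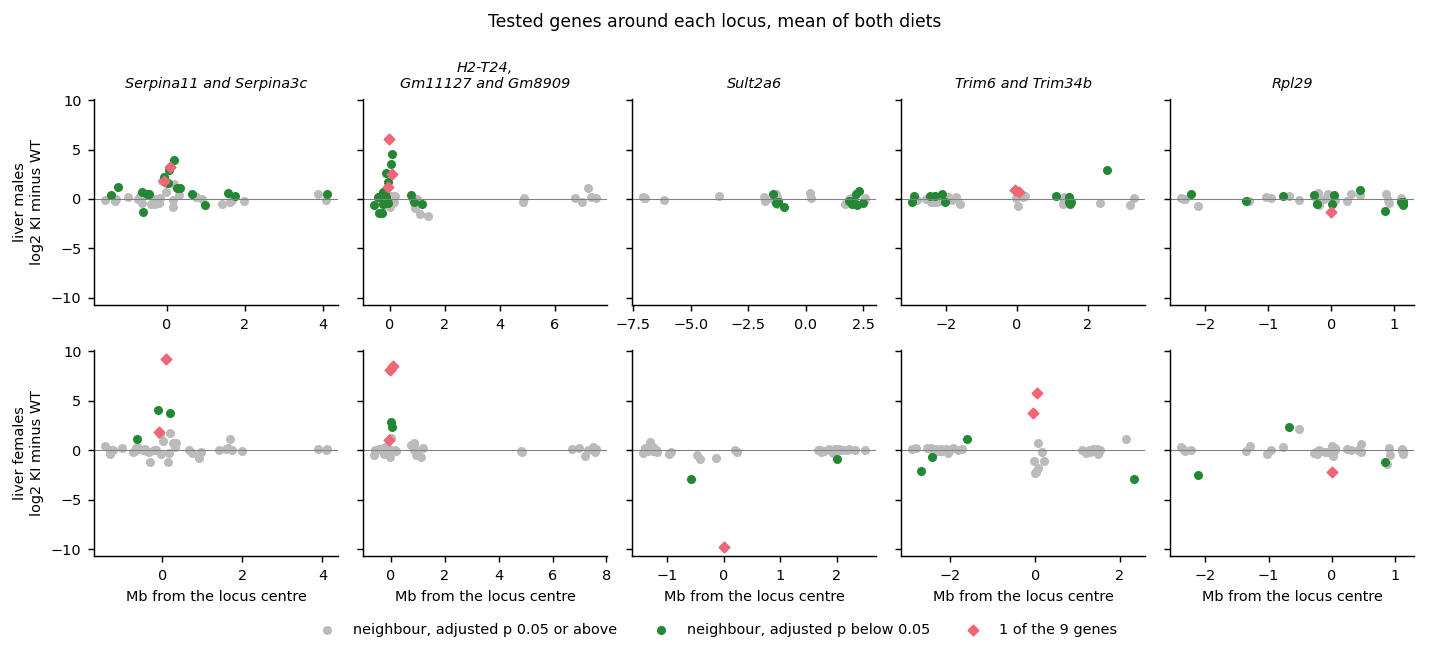
KI minus WT difference (log2, mean of diets) of the 9 genes and the tested neighbours of the 5 loci in male and female liver, by distance from the locus centre in Mb, with called neighbours marked. In females 14 of 211 are called and in males 73 of 211.

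Families and pathways related to the 9 genes were read in lists that leave out the 9. Counts are of genes called in the mean of diets, to be read beside 0.924% of all genes called in female and 35.4% in male liver. Male WT control includes the merged sample whose sex genes contradict its label, and male counts that differ by over 1.5 times without it are given both ways. The 35.4% is from the fit with that sample. The share of all genes called without it is not given here, so nothing is read from the counts without it. Of 17 other Serpina cluster genes tested in females 2 rose (Serpina1e and Serpina3h; median of the list 0.11 on the log2 scale, beside -0.00 over all genes), and of 19 in males 7 rose, among them Serpina9 (2.19 ± 0.53). Of MHC class I genes 2 of 13 rose in females, and in males 2 of 14 rose (H2-T3, 4.54 ± 0.96, and Gm7030, 3.49 ± 0.83) and 5 fell, H2-Q1 most (-1.85 ± 0.29), whereas without the merged sample 2 rose and 3 fell. Of 12 class I loading genes 1 rose in females (Tap2, 0.39 ± 0.08) and 5 rose in males, of which the class I transactivator gene Nlrc5 rose by 0.76 ± 0.14.

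Among interferon response genes 3 of 21 rose in female liver, Ifi44 by 1.18 ± 0.20, Usp18 by 0.92 ± 0.16 and Xaf1 by 0.85 ± 0.16. In male liver 4 of 21 rose, among them Mx2 (0.73 ± 0.20) and Irgm1 (0.60 ± 0.18), a share below the 35.4% of all genes. The male list median was 0.62 on the control diet (1 higher, 0 lower) and -0.32 on the NASH diet (0 higher, 1 lower). Without the merged sample 8 of 21 rose in males, a count given without its share over all genes. Of the Trim cluster 1 of 10 rose in females (Trim68) and 0 of 8 changed in males by edgeR (0 at an unadjusted p under 0.05, 0 by DESeq2). Sult2a5 fell in females, 1 of 6 Sult2a family genes tested, and 0 of 2 changed in males (0 unadjusted, 0 by DESeq2). Of 24 other ribosomal large-subunit genes 0 changed in female liver (0 unadjusted, 0 by DESeq2) while 20 fell in male liver, with a list median of -0.33 beside -0.02 over all genes. Among 4 genes known to vary between inbred strains, H2-Ea-ps was called higher in both sexes, from 0 CPM in all 8 female WT libraries to a median of 10 CPM in KI control and 16.9 CPM in KI NASH, and Glo1 in males (0.55 ± 0.19; 0.46 and adjusted p = 0.083 by edgeR without the merged sample). Of sex dimorphic liver genes 0 of 15 changed in females by edgeR (2 unadjusted, 0 by DESeq2), while in males 2 of 14 rose and 5 fell. Without the merged male sample 6 of 14 rose and 4 fell, and the difference of Cyp2a4, a female-predominant steroid hydroxylase gene, went from -7.88 ± 1.41 to -4.07 ± 0.87 (log2, SE; adjusted p = 0.0036 by edgeR).

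In macrophages 6 of the 9 genes had enough counts to test. Sult2a6 had 0 counts in all 38 libraries, which allows at most 0.114 to 0.182 CPM per library. Gm11127 was at 0 to 0.343 CPM and Gm8909 at 0 to 0.0941 CPM, with KI and WT ranges overlapping, and H2-Ea-ps was at 0.0893 CPM or less. These 4 genes were thus at or near 0 in macrophages, and their genotype difference was not detectable at this depth. For none of the 9 genes were KI and WT libraries of a sex and diet apart, beside 8.55% of all genes tested in males on the control diet, 3.30% in males on the NASH diet, 13.7% in females on the control diet and 1.18% in females on the NASH diet.

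Trim34b was the member called higher in KI macrophages. In females it was at 0.267, 0.525, 0.873 and 0.398 CPM in WT control and at 6.45, 0.686, 3.43 and 4.99 CPM in KI control. In the 6 WT NASH libraries it had a lowest value of 0.342, a median of 0.507 and a highest of 0.713 CPM, and in the 6 KI NASH libraries 0.395, 3.76 and 11.9 CPM. So 7 of 10 female KI libraries were at 3.43 CPM or more, and the other 3 lay within the range of the 10 WT libraries. The difference was 2.96 ± 0.54 (log2, SE) as the mean of diets (adjusted p = 0.003; 13.4% of all genes were called), 2.90 ± 0.82 on the control diet (adjusted p = 0.049; 4.64%) and 3.02 ± 0.68 on the NASH diet (adjusted p = 0.048; 0.561%). In each of these 3 comparisons it was the member called of 6 tested. The mean-of-diets call held in 24 of 24 alternatives, with differences of 2.64 to 3.15, whereas the control-diet call held in 6 of 24 (adjusted p 0.0051 to 0.13) and the NASH call in 4 of 24 (adjusted p 0.00088 to 0.12). With replicate number as a block in edgeR, both single-diet calls were lost (adjusted p = 0.083 on the control and 0.11 on the NASH diet). Of the 20 libraries left out in turn, the control-diet call was lost without each except KI control replicate 2 and KI NASH replicates 1, 4, 5 and 6, and the NASH call without each except KI NASH replicates 1, 2 and 5.

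In male macrophages Trim34b was at 0.512, 0.473, 0.402 and 0.367 CPM in WT control, at 0.459, 0.747, 0.674 and 0.606 CPM in KI control and at 0.164, 0.353, 0.271, 0.336 and 0.123 CPM in WT NASH libraries. In KI NASH it was at 1.74, 0.581, 0.273, 0.325 and 4.17 CPM, so that 2 of 5 libraries were high. The NASH difference of 2.49 ± 0.63 had adjusted p = 0.043 (1 of 6 members called, beside 3.13% of all genes), and it was called in 7 of 23 alternatives (adjusted p 0.0063 to 0.12). With replicate number as a block in edgeR it was 1.99 and not called (adjusted p = 0.12). Of the 18 libraries left out in turn, the call was lost without each except WT NASH replicate 4 and KI NASH replicates 2, 3 and 4, and the difference was lowest, 1.54, without KI NASH replicate 5. On the control diet the difference was 0.44 ± 0.68 (adjusted p = 0.96), with 0 of 6 members called by edgeR, 0 at an unadjusted p under 0.05 and 0 by DESeq2 (0% of all genes called by edgeR). As the mean of diets it was 1.46 ± 0.47 (adjusted p = 0.29), with 0 of 6 called, 3 at an unadjusted p under 0.05 and 0 by DESeq2 (0% of all genes). A fit of both sexes, added after the data were seen, gave 2.21 ± 0.37 as the mean of diets and sexes (adjusted p = 0.0012; 4.73% of all genes called).

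Macrophage libraries high in Trim34b were low in Trim12a, which was chosen after its values were seen. In females Trim12a was at 32.2 to 46.8 CPM in the 13 libraries with low Trim34b and at 0 to 25.5 CPM in the 7 with high Trim34b. The 2 female libraries with the most Trim34b, KI NASH replicate 4 (11.9 CPM) and KI control replicate 1 (6.45 CPM), had 0 Trim12a. In males it was at 30.5 to 47.2 CPM in 16 and at 12.1 to 21 CPM in 2 libraries. Trim34a, which holds 59% of the 50-base stretches of Trim34b, was also lower in these libraries. In females it was at 22 to 42.2 CPM in the 13 and 8.06 to 33.4 CPM in the 7 (r of -0.69). In males it was at 16.9 to 38.7 CPM in the 16 and 9.6 to 16.5 CPM in the 2 (r of -0.28). Whether reads moved between the 2 copies was not tested. As group differences Trim12a and Trim34a did not pass the test (Trim12a -0.87 ± 0.54, adjusted p = 0.3, and Trim34a -0.43 ± 0.22, adjusted p = 0.21, in females as the mean of diets). Trim6, which followed Trim34b in liver, was at 0.235 to 3.29 CPM in all 38 macrophage libraries, with differences of 0.50 ± 0.30 in males and 0.13 ± 0.39 in females as the mean of diets (adjusted p = 0.54 and 0.86).

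Rpl29 formed bands in macrophages as it did in liver. It was at 9.49 to 12.2 CPM in 5 libraries, male WT NASH replicate 2, male KI NASH replicate 5, and female KI control replicates 1 and 2 and KI NASH replicate 4, and at 55.2 to 145 CPM in the other 33. The low band held 1 WT and 4 KI libraries. The genotype difference was -0.43 ± 0.41 in females and -0.08 ± 0.42 in males as the mean of diets (adjusted p = 0.53 and 0.97). Abhd14b, the gene most alike and also on chromosome 9, was at 0.64 to 3.9 CPM in the same 5 libraries and 3.73 to 13.5 CPM in the others.

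H2-T24 was abundant in macrophages, at 38.4 to 124 CPM, and did not separate the genotypes. The difference was 0.01 ± 0.12 in females and 0.03 ± 0.15 in males as the mean of diets, with 95% intervals of -0.24 to 0.25 and -0.26 to 0.32 (adjusted p = 0.97 and 0.96). In females it was -0.38 ± 0.19 on the control diet (adjusted p = 0.27 by edgeR) and 0.40 ± 0.16 on the NASH diet (adjusted p = 0.19). The female mean of diets thus averages differences of opposite sign. The change between diets was 0.78 ± 0.25 (unadjusted p = 0.0058, adjusted p = 0.27, by edgeR). Without KI NASH replicate 5 the NASH difference was 0.53 (adjusted p = 0.044). In female WT macrophages H2-T24 fell by 0.69 (log2, SE 0.17) on the NASH diet (adjusted p = 0.018, beside 12.9% of all genes called). Its most alike genes over the 38 macrophage libraries were Ifi208, Irf7 and Siglec1, which are linked to interferon responses, and 1 of its 25 most alike lay on chromosome 17.

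Serpina3c and Serpina11 in macrophages differed between the genotypes in opposite directions in the 2 sexes on the NASH diet, and hepatocyte markers moved the same way. In males Serpina11 was at 0.602, 0.235, 0.706, 1.77 and 0.123 CPM in WT NASH and 2.81, 1.21, 4.42, 9.04 and 1.38 CPM in KI NASH libraries, a difference of 2.48 ± 0.68 (adjusted p = 0.056). In females it had a median of 1.3 CPM in WT NASH and 0.218 CPM in KI NASH libraries, a difference of -2.41 ± 0.74 (adjusted p = 0.11). Serpina3c differed by 2.25 ± 0.62 in males (adjusted p = 0.057; both genes passed in males by DESeq2, adjusted p = 0.0078 for Serpina3c and 0.0089 for Serpina11) and by -1.28 ± 0.36 in females (adjusted p = 0.088). In males both passed without WT NASH replicate 4 (2.99 for Serpina3c and 3.18 for Serpina11) and without KI NASH replicate 2 or 5, and Serpina3c also without KI NASH replicate 1 (2.45). With replicate number as a block in edgeR both also passed in males (adjusted p = 0.038 for Serpina3c and 0.0097 for Serpina11). In females Serpina11 passed without KI NASH replicate 2 (-2.86, adjusted p = 0.047), and Serpina3c passed by DESeq2 (adjusted p = 0.046). The male minus female difference of the KI effect was 4.89 ± 1.04 for Serpina11 (adjusted p = 0.0029) and 3.52 ± 0.71 for Serpina3c (adjusted p = 0.0022), in the fit of both sexes added after the data were seen, beside 4.37% of all genes. The 12 hepatocyte markers summed to 69 to 351 CPM in male WT NASH and 499 to 2944 CPM in male KI NASH, and to 232 to 1829 CPM in female WT NASH and 58.5 to 712 CPM in female KI NASH libraries, with Ass1 at 0 in all 4 groups. Their part in the Serpina differences was not tested. Genes most like Serpina11 in macrophages were Slc10a1, Apon and Ces2a, which hepatocytes express.

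With diet, Serpina11 rose in male KI macrophages on the NASH diet by 3.26 ± 0.79 (adjusted p = 0.0075) and Serpina3c by 2.36 ± 0.68 (adjusted p = 0.019), 2 of 6 members beside 24.0% of all genes. Serpina11 also rose in female WT macrophages by 3.27 ± 0.94 (adjusted p = 0.03). The difference of the KI effect between diets was called for 0 of 6 members by edgeR in either sex, with 3 in males and 1 in females at an unadjusted p under 0.05 and 0 by DESeq2 (0% of all genes called in males and 0.288% in females).

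**Figure D5:**
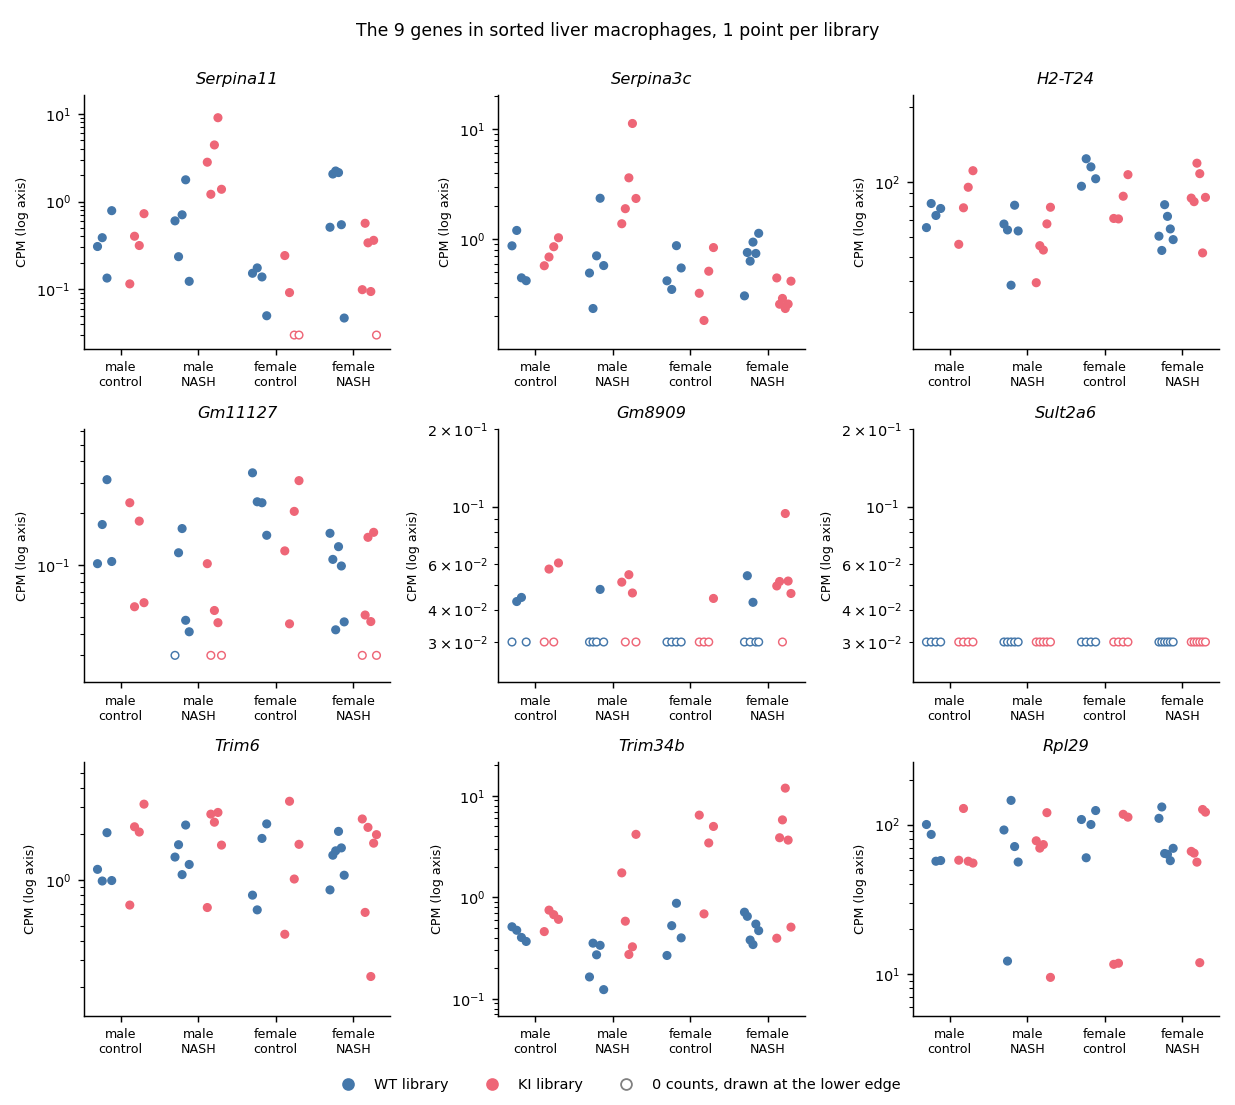
CPM of the 9 genes in each macrophage library (points, log axis) by sex, genotype and diet. Trim34b reaches 11.9 CPM in female KI libraries and 0.873 CPM at most in female WT libraries, and Rpl29 lies at 9.49 to 12.2 CPM in 5 libraries.

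The same neighbours were tested in macrophages. In females 36 of 208 (17.3%) were called in the mean of diets, 12 higher and 24 lower, beside 13.4% of all genes; without KI control replicate 1 or 2 the count was 23 or 22. In males 0 of 209 were called by edgeR, 23 had an unadjusted p under 0.05 and 2 were called by DESeq2. The lists of related genes showed 0 calls in male macrophages by edgeR for each list. By DESeq2 2 of 15 Serpina cluster genes passed there and none of the other lists had a call, with 8 of 15 Serpina cluster, 6 of 8 sex dimorphic liver, 1 of 12 loading, 1 of 11 Trim and 1 of 3 strain-variable genes at an unadjusted p under 0.05. In female macrophages 8 of 14 Serpina cluster genes fell, Serpina3k by 2.54 (log2, SE 0.33) and Serpina1a by 1.89 (SE 0.43), beside a hepatocyte marker sum of 26 to 69.8 CPM in KI control and 126 to 347 CPM in WT control libraries. Also called in female macrophages were Ifi44 (0.88 ± 0.22) and Irgm1 (0.37 ± 0.11) of 21 interferon genes, H2-T22 and H2-M2 higher and H2-Q10 lower of 11 class I genes, Trim30b (-0.85 ± 0.26) of 11 Trim genes, 2 of 3 Sult2a genes lower and Cyp2b9 lower of 6 sex dimorphic genes. Of 24 ribosomal genes 0 changed (2 unadjusted, 0 by DESeq2), of 12 loading genes 0 (4 unadjusted, 3 by DESeq2) and of 3 strain-variable genes 0 (2 unadjusted, 1 by DESeq2).

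Spp1 was higher in every KI than in every WT macrophage library on the control diet, in both sexes, and the ranges overlapped on the NASH diet. Trim34b reached 3.43 CPM or more in 3 of 4 female and 0 of 4 male KI control libraries. In liver, libraries labelled KI could lack the pattern of 1 locus and carry that of another, and 1 male WT library carried the high Gm11127 pattern. Strain background and osteopontin as sources of these differences cannot be told apart here. The labels used give no strain background, and every KI library is a knock-in by its label. Liver Spp1 did not show which libraries carry the knock-in.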

How the data were processed

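Raw counts per gene symbol were what the authors deposited, in 3 tables (female liver, male liver, and macrophages of both sexes), with mm10 as the genome build per the submitters' processing notes. Library preparation used Illumina's TruSeq Stranded mRNA reagents, per the labels' protocols. Aligner, counting program, annotation and strand: not given in the sources used here. Copies, overlapping and antisense genes may therefore share reads.

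Each tissue and sex was fitted separately with edgeR 4.0.16 (R 4.3.3), using TMM factors, genes passing filterByExpr (min.count 10 and min.total.count 15) and the quasi-likelihood test on group means; adjusted p values are its Benjamini-Hochberg values over all genes tested, with a threshold of 0.05. CPM are counts scaled to the library's total. No test compared levels between tables. Ranges of different tables set side by side, and likeness over both liver tables with each sex's mean subtracted, are descriptions. DESeq2 1.42.0, RLE scaling, no filter, a replicate block, other neighbour ranges, leaving out each library, and leaving out libraries with contradicting sex genes were alternatives. The scripts were tested on simulated data. Where a group is at or near 0 the fitted difference depends on the prior count, and CPM are given.

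The 9 genes and the lists (Serpina cluster, class I, class I loading, Sult2a, Trim cluster, interferon response, large ribosomal subunit, strain-variable and sex dimorphic genes, cell type markers) were chosen with earlier results of these data known. Named are the 9 genes, neighbours and list genes called in 1 direction in both liver sexes, and the 3 genes most alike; others are said to be chosen after their values were seen, and list examples are such choices too. The values of 1 list gene are not reported here. Neighbours follow RefSeq order on GRCm38.p6, from which 14514 of 14544 genes had a position. Promoters are RefSeq's. No columns of other samples were present.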

Additional observations from a re-analysis of the deposited data

Results flagged for a closer look

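Of 116 groups of values, 6 held a library whose gap to the rest was large for the range of its group; chance alone gives about 1 in 20. In female liver these were Serpina11 in KI NASH replicate 4 (93.5 CPM, the others 204 to 226 CPM), Gm11127 in KI NASH replicate 1 (0 CPM, the others 9.06 to 10.6 CPM) and Serpina3c in WT NASH replicate 3 (0.591 CPM, the others 0 to 0.0467 CPM). In male macrophages they were Serpina3c in WT NASH replicate 4 (2.35 CPM, the others 0.235 to 0.706 CPM), Serpina3c in KI NASH replicate 4 (11.2 CPM, the others 1.38 to 3.6 CPM) and Rpl29 in KI control replicate 2 (128 CPM, the others 55.2 to 57.7 CPM).

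In macrophages on the NASH diet the KI effect differed between the sexes for Serpina3c, by 3.52 ± 0.71 (log2, SE, male minus female; adjusted p = 0.0022), and for Serpina11, by 4.89 ± 1.04 (adjusted p = 0.0029), in edgeR's test of the difference itself.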

How the results depend on the processing

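No result reversed its direction under any alternative run. For the 9 genes in liver, described without a test, the differences moved by less than their replicate spread except in 7 values with a library left out, against 521 that did not move. DESeq2 raised several counts: neighbours in female liver from 14 to 28, neighbours in male macrophages from 0 to 2, genes in male macrophages on the control diet from 0 to 5 and on the NASH diet from 408 to 794, genes in female macrophages on the control diet from 596 to 1163 and on the NASH diet from 72 to 532, and members from 1 to 3 (male NASH) and from 1 to 2 (female NASH). RLE scaling gave 21 genes and 0 members in females on the NASH diet and 0 members on the control diet; no filter gave 0 genes and 0 members on the NASH diet and 0 members on the control diet. Without the library whose sex genes contradict the label, 0 members were called in males on the NASH diet. With 10 genes on each side the neighbours called were 36 of 111 (male liver), 8 of 111 (female liver) and 21 of 108 (female macrophages), and with 40 on each side 151 of 411 (male liver) and 67 of 408 (female macrophages).

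The replicate block gave 2 members in males on the NASH diet (Serpina3c, 2.16 with adjusted p = 0.038, and Serpina11, 2.53 with adjusted p = 0.0097, by edgeR; Trim34b was at 1.99 with adjusted p = 0.12), 0 members in females on the control diet, and 6 genes and 0 members in females on the NASH diet; it moved no other count by over 1.5 times. The labels do not say that same-numbered libraries share a mouse. Deviations of same-numbered WT and KI libraries from their group means correlated with r from -0.183 to 0.556. In macrophages on the NASH diet r was 0.556, 0.519 and 0.372 for male replicates 2, 4 and 5. For female replicate 4 it was 0.515. Whether same-numbered libraries share a source was not tested, so the block is given as an alternative only.

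With each library left out in turn, counts ran from 62 to 73 for neighbours in male liver, 8 to 17 in female liver, 0 to 0 in male and 22 to 42 in female macrophages. Genes called ran from 0 to 1 (male control diet), 0 to 975 (male NASH; 0 without WT NASH replicate 1 or 5, 975 without WT NASH replicate 4), 261 to 919 (female control diet) and 0 to 662 (female NASH; 662 without KI NASH replicate 2). Members called ran from 0 to 3 (male NASH), 0 to 1 (female control diet), 0 to 2 (female NASH), 1 to 2 (female mean of diets), 0 to 1 (female difference between diets) and 0 to 0 in the other male comparisons. The cause of these shifts was not tested. Genes under about 1 CPM rest on few counts, which limits Trim34b in WT libraries and Gm11127 and Gm8909 in macrophages, but not H2-T24 there.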
